A study of Mus musculus with 8 samples.

Results

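The first day of micromass culture in cells that carried an Erg plasmid was described from 4 of the 8 arrays of the series: the 2 arrays titled as overexpression day 1 were set against the 2 titled as overexpression day 0. The members were chosen by their titles alone. CH310T1/2 cells, spelled here as in the labels, are a mouse mesenchymal line that can enter the cartilage, fat and muscle lineages. In a micromass culture the cells are plated as dense spots, in which they condense much as limb mesenchyme does before cartilage forms. All groups were electroporated with a plasmid and grown as micromass. In the Erg day 1 group (n = 2) the Col2 promoter, taken from the gene of the main cartilage collagen, drove Erg-010. In the Erg day 0 group (n = 2) the CMV promoter, active in most cell types, drove it. The control day 1 and control day 0 groups (n = 2 each) received a control plasmid. Their change over the same day is given for some results and is set against the Erg change after the lists. The promoter changes with the day in the Erg groups, so that a difference between the Erg days cannot be assigned to the day or to the promoter. The arrays numbered 5 to 8 in the labels are those of day 1 and 1 to 4 those of day 0, so that this order and the day cannot be told apart either. Nothing in the labels states that the replicates were separate cultures, nor how long after electroporation day 0 was taken. The p-values therefore cover the spread between replicates only, and that spread can be technical.

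Erg is a transcription factor of the ETS family, known in developing limbs from the cells of future joints and in adult tissue from the endothelium. Interferon signalling, to which much of what follows refers, starts when a cell senses foreign nucleic acid or receives secreted interferon. It runs through transcription factors, Stat2 and Irf9 among them, which bind the interferon-stimulated response element, and ends in proteins that block viral growth. The contractile genes that follow are known targets of Srf, the serum response factor, which binds the CArG box and is held in check by free actin through its partners Mkl1 and Mkl2.

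The values are levels on the log2 scale of the intensities after RMA, a method that corrects background, equalises the arrays and combines the probes of a probe set. Each array holds 45037 probe sets, and the array medians lay between 6.59 and 6.70. The leading principal component (65.8% of the variance) separated the days. On the next one (20.5%) Erg day 0 replicate 2 stood apart, at -84.1, against 4.61 to 42.5 for the other day 0 arrays. In the Erg day 1 pair 314 probe sets (0.697%) differed by 2-fold or more between the arrays, against 4137 (9.19%) in the Erg day 0 pair. For some results, values without Erg day 0 replicate 2 therefore stand beside them or together after the lists. Results given without such a value can depend on that array too. The labelled cell type was checked against 14 mesenchymal markers, which had median levels of 13.42 and 13.68 on Erg day 1 and of 13.39 and 12.44 on Erg day 0, against 7.34, 7.35, 7.35 and 7.23 for all genes on the same arrays. In bulk RNA, fewer cells of a kind and less RNA per cell cannot be told apart.

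The known regulators of 6 genes described below bind short motifs that can be looked for near gene starts. Promoter sequences of these 6, all chosen from windows that hold a match, are shown first. Each is a RefSeq window on GRCm38.p6 that runs 250 bases before to 50 after the gene's annotated start, written 5′ to 3′ on the strand of the gene. The first 4 belong to interferon response genes, and capitals mark the core of the response element (GAAA, any 2 bases, then GAAA again), searched on both strands. They are Ifit1 (chr19:34640639-34640938, plus strand), Ifit3 (chr19:34583279-34583578, plus strand), Oas1a (chr5:120907476-120907775, minus strand) and Cxcl10 (chr5:92348840-92349139, minus strand). Ifit1 holds 2 matches, which begin 104 and 85 bases before the start, and Ifit3 2 at 156 and 122. Oas1a holds 2 at 20 and 14, which overlap in 1 run of capitals, and Cxcl10 1 at 213.
Ifit1: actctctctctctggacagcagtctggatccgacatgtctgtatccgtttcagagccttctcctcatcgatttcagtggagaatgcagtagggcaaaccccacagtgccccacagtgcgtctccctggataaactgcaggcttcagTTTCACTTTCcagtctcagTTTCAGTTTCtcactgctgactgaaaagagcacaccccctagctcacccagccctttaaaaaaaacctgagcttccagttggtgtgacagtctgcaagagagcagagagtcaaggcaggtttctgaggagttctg
Ifit3: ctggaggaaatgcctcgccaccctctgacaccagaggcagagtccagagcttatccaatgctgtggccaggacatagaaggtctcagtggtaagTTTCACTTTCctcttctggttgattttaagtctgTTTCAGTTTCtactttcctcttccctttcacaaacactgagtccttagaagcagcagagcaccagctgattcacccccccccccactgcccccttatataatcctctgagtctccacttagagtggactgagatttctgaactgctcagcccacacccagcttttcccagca
Oas1a: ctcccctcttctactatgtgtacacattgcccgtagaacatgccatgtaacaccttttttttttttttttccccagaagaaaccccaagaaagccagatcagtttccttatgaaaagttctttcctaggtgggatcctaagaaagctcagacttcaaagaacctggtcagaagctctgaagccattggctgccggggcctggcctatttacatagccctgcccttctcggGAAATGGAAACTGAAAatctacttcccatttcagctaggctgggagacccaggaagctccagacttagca
Cxcl10: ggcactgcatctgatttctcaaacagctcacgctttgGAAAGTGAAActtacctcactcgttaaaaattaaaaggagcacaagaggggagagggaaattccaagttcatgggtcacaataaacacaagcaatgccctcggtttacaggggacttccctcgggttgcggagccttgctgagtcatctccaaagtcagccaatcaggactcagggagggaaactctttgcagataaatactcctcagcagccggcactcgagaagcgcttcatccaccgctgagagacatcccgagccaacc
The other 2 belong to genes of the contractile machinery, and capitals mark the CArG box, which was searched by its consensus and reads alike on both strands. They are Myl9 (chr2:156775214-156775513, plus strand) and Vcl (chr14:20929148-20929447, plus strand), with 1 box each, 161 and 227 bases before the start.
Myl9: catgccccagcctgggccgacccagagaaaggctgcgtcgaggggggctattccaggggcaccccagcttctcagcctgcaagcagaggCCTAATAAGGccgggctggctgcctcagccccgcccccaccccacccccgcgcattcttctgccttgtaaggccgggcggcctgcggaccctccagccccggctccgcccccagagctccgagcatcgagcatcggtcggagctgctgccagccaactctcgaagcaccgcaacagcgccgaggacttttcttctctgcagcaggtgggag
Vcl: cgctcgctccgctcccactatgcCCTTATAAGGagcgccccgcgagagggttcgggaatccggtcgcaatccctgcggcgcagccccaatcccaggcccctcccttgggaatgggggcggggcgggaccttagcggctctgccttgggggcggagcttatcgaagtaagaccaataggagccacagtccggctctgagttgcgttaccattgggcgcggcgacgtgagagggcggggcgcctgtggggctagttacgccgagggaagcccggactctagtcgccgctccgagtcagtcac
Over 27025 RefSeq genes with such a window, 3.99% held that core and 1.81% held a CArG box. Of the 30 interferon response genes described below 22 had a window, of which 13 (59.1%) held the core and 0 a CArG box. Of the 25 contractile genes 19 had a window, of which 4 (21.1%; Cnn2, Myl9, Srf and Vcl) held a CArG box and 0 the core. Of the 12 genes described below that fell with the widest gap 9 had a window, of which 5 (55.6%) held the core. Of the 12 that rose 10 had a window, of which 1 (10.0%) held a CArG box. These matches are descriptions of letters, not of binding.

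Over the day with Erg plasmids, antiviral and chemokine transcripts were far lower. In the main fit more genes were called higher than lower, contractile, matrix and signalling genes among the higher ones. At an adjusted p of 0.05 in limma, 3146 of the 45037 probe sets (6.99%) were called, 2395 of them higher (5.32%) and 751 lower (1.67%) on day 1. At least 2-fold changes numbered 1370 and 455. Among the 20680 probe sets that each stand for a symbol, with p still adjusted over all probe sets, 1667 passed (8.06%), 1279 higher (6.18%) and 388 lower (1.88%), and the median over all symbols was -0.07. The share of calls that were higher, 76.1%, was 66.6% after a second quantile normalization and 65.8% after cyclic loess. This excess was smaller, or reversed, with some single arrays left out. The counts depend on single arrays: 4344 probe sets passed without Erg day 0 replicate 2 and 10337 without replicate 1, while 389 passed without Erg day 1 replicate 1 and 105 without replicate 2. Without either control day 0 array 802 passed, since the control arrays enter the estimate of spread. With the Erg arrays fitted alone, 23 passed, 43.5% of them higher, so that the excess of higher calls depends on the arrays used. Of the symbols that rose in Erg cultures 93.3% also rose in control cultures, where 11% of all symbols rose. Of those that fell 90.5% also fell in control cultures, where 9.26% of all symbols fell. In the authors' deposited table, 5641 probe sets have a q-value under 0.05 for this comparison, 3998 with a ratio of day 1 over day 0 above 1 and 1643 below, and all 3146 called here are among them.

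The Erg transcript itself was read by 2 probe sets. The first (1440244_at), which the array's annotation aligns to chr16:95580775-95581556 on a build it does not name, had 8.53 and 7.68 on Erg day 1, against 6.79 and 5.59 on Erg day 0. Both day 1 arrays lay above both day 0 arrays, and the rise was 1.92 (SE 0.42, adjusted p = 0.0459 in limma). The call was lost without Erg day 0 replicate 2 (1.31, adjusted p = 0.0517 in limma, 1 day 0 array left). In control cultures the same probe set differed by 1.01 over the day, with 8.43 and 8.50 on day 1, against 7.30 and 7.61 on day 0. Both Erg arrays thus lay below both control arrays on day 0, and the groups overlapped on day 1. An excess over control was therefore not seen with this probe set on either day. The second (1425370_a_at, chr16:95581816-95808200) had 7.22 and 6.81 on Erg day 1, against 6.96 and 6.62 on Erg day 0, and did not pass (difference 0.23, SE 0.20, adjusted p = 0.511 in limma). Without the plasmid's sequence it cannot be said whether its transcript is read by these probe sets.

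The genes that fell with the widest gap between the groups were nearly all antiviral effectors, sensors and chemokines. Ifi44, an interferon-induced protein, had 5.41 and 5.22 on Erg day 1, against 11.87 and 12.36 on Erg day 0. It fell by 6.80 (SE 0.22, adjusted p = 0.000195 in limma), or 111-fold. Ifit1, which binds viral RNA and blocks its translation, had 7.95 and 8.05 on Erg day 1, against 13.06 and 13.44 on Erg day 0 (-5.25, SE 0.19). Cxcl10, a chemokine that draws T cells, had 5.21 and 5.58 on Erg day 1, against 10.50 and 11.38 on Erg day 0 (-5.55, SE 0.30). Zbp1, a sensor of unusual nucleic acid in the cytoplasm, had 5.63 and 5.89 on Erg day 1, against 10.74 and 11.34 on Erg day 0 (-5.28, SE 0.21). In each of these genes the gap between the groups was at least 4.85, many times the spread within them. Oasl2 and Oas1a, of the 2′-5′-oligoadenylate synthetase family, which activates RNA decay, differed by -4.65 (SE 0.18) and -4.52 (SE 0.17). Rtp4 differed by -4.41 (SE 0.16), Trim30 by -4.02 (SE 0.20) and Bst2, which tethers budding virus to the cell surface, by -3.65 (SE 0.12). The array's annotation aligns the Bst2 probe set to chromosome 17, while RefSeq places the gene on chromosome 8, so its identity is less certain. Pyhin1, a DNA-binding interferon-induced protein, had 4.06 and 4.51 on Erg day 1, against 8.35 and 11.51 on Erg day 0 (-5.65, SE 0.91), with day 0 replicates that lay 3.16 apart. The other members of these 12 were Il6, the inflammatory cytokine, and Ccl7, a monocyte chemokine. Il6 had 7.65 and 6.92 on Erg day 1, against 12.87 and 12.37 on Erg day 0 (-5.33, SE 0.30), and Ccl7 had 8.20 and 8.19 on Erg day 1, against 12.77 and 13.37 on Erg day 0 (-4.87, SE 0.34). Without Erg day 0 replicate 2, Pyhin1 differed by -4.07 and the other 11 by -3.72 (Bst2) to -6.55 (Ifi44).

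**Figure D1:**
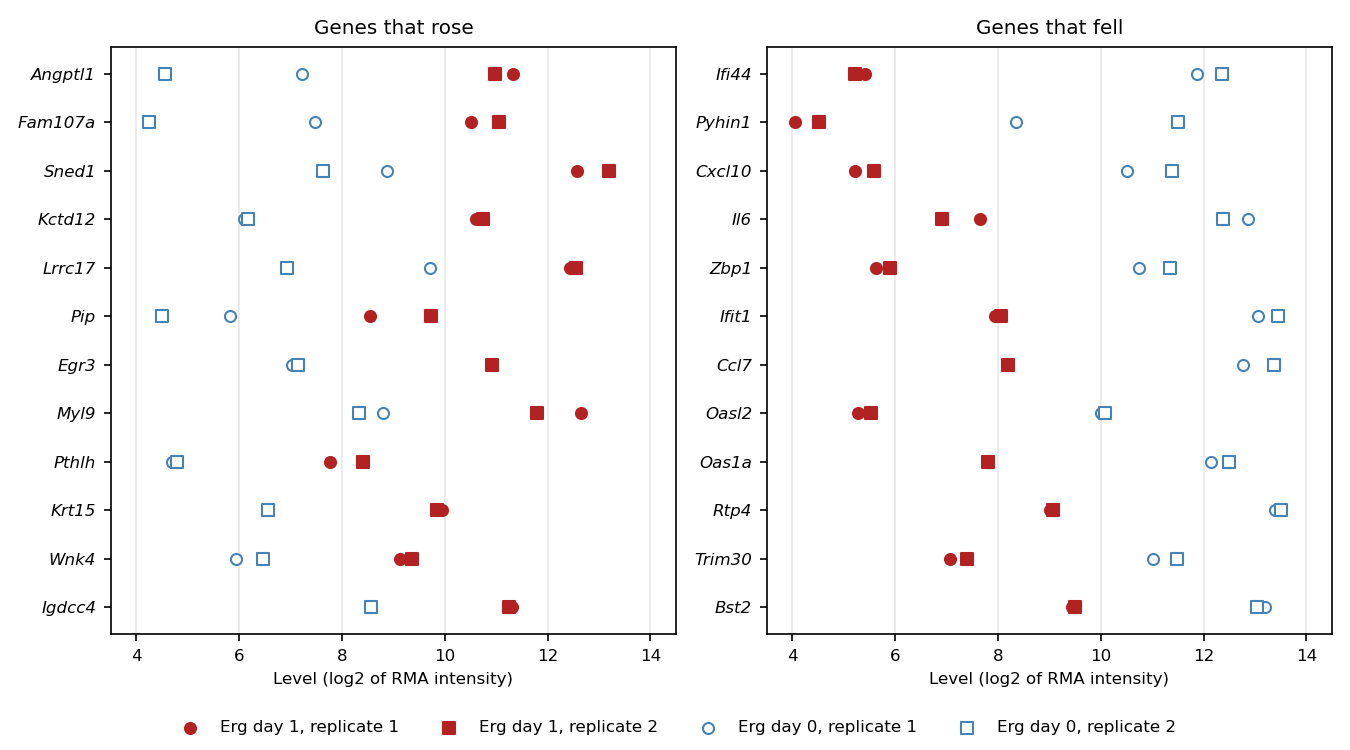
Levels (log2 of RMA intensity, horizontal axis) of the 12 genes that rose and the 12 that fell with the widest gap between Erg day 1 (filled red) and Erg day 0 (open blue), with circles for replicate 1 and squares for replicate 2. In every gene both day 1 arrays lie on the same side of both day 0 arrays, and the day 0 arrays of Angptl1, Fam107a, Lrrc17 and Pyhin1 lie far apart.

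The interferon response list moved as a whole. Of its 30 measured members 29 fell and 0 rose, against 1.88% and 6.18% of all symbols, and the median difference was -2.86, against -0.07 over all symbols. The remaining member, Rsad2, which makes an antiviral nucleotide, had 6.85 and 6.99 on Erg day 1, against 8.62 and 11.02 on Erg day 0 (-2.90, SE 0.68, adjusted p = 0.0533 in limma). In all 30 members both Erg day 1 arrays lay below both Erg day 0 arrays, which was so in either direction for 11705 of 20680 symbols. Among the transcription factors of the pathway, Irf7, which amplifies interferon production, differed by -3.56 (SE 0.31), Irf9 by -2.38 (SE 0.28) and Stat2 by -2.35 (SE 0.33). The RNA sensors Ifih1 and Ddx58 differed by -2.15 (SE 0.19) and -1.27 (SE 0.14), and Dhx58, their relative, by -3.29 (SE 0.19). Among the genes whose promoters are printed above, Ifit3 differed by -3.23 (SE 0.20). Mx1, a GTPase that traps viral particles, had 4.89 and 5.45 on Erg day 1, against 8.08 and 11.30 on Erg day 0 (-4.52, SE 0.99), so that its day 0 level differed by 3.23 between the replicates.

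The size of the fall depended on which Erg day 0 array it was measured against. Erg day 0 replicate 2 lay above replicate 1 in 29 of the 30 members, by a median of 0.47. Measured against replicate 1 alone, the median difference of the list was -2.32 and 28 members fell. Against replicate 2 alone it was -3.21 and 30 fell. Over the 16 settings tried for lists, 14 to 30 members fell and the median lay between -3.21 and -2.32. The control cultures showed the same direction, with 26 members that fell and 0 that rose, against 9.26% and 11% of all symbols there, and a median of -2.07. The Erg change was further below 0 than the control change in all 30 members, by a median of 0.56. Without Erg day 0 replicate 2 this did not hold for Cxcl10, Isg20, Mx1, Mx2 and Rsad2. Rsad2 then differed by -1.69 in Erg cultures, against -2.26 in control cultures, and Cxcl10 by -5.11, against -5.19. At an unadjusted p of 0.05 in limma the Erg and control changes differed in 5 members, against 2.44% of all probe sets. After adjustment over all probe sets they differed in 0. Markers of leukocytes, cells with a strong interferon response of their own, were low: the median level of 13 markers was 6.29 and 6.26 on Erg day 1, against 7.04 and 6.70 on Erg day 0. Their summed intensity was 1369 and 1485 on Erg day 1, against 2196 and 1744 on Erg day 0, and Ptprc, the marker of all leukocytes, had 4.43 and 4.31, against 4.71 and 4.53. Of the 13 markers 1 fell, Cd68 (-2.09, SE 0.43, adjusted p = 0.0393 in limma), and 0 rose. The part of such cells in the result was not tested.

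**Figure D2:**
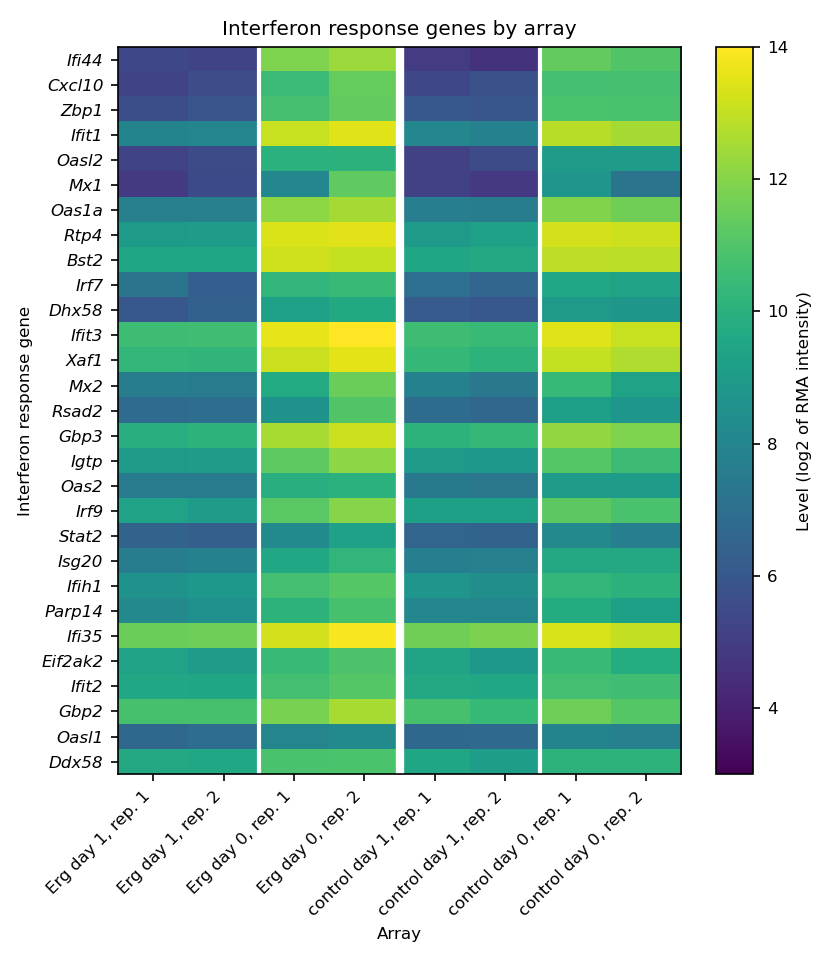
Levels (log2 of RMA intensity, colour) of 29 of the 30 interferon response genes (rows, ordered by the Erg difference) on the 8 arrays (columns). The Erg day 1 columns are darker than the Erg day 0 columns in every row, Erg day 0 replicate 2 is brighter than replicate 1 in 28 rows, and the control columns on the right show the same direction.

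Part of the class I antigen presentation list, which interferon is known to raise, fell. Of 12 measured members 6 fell and 0 rose, against 1.88% and 6.18% of all symbols, with a median of -1.51. H2-K1, a class I heavy chain, had 7.95 and 8.15 on Erg day 1, against 10.71 and 10.40 on Erg day 0 (-2.50, SE 0.16, adjusted p = 0.00167 in limma). The 3 catalytic subunits of the immunoproteasome, which cuts peptides for presentation, fell by similar amounts: Psmb9 by 2.10 (SE 0.29), Psmb10 by 2.05 (SE 0.21) and Psmb8 by 2.00 (SE 0.19). Tap1, a peptide transporter, fell by 1.60 (SE 0.30). Its partner Tap2 (-0.48, adjusted p = 0.135 in limma) and the light chain B2m (-0.19, adjusted p = 0.392 in limma) did not pass. The median was -1.13 without Erg day 0 replicate 2.

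Inflammatory cytokines and their regulators gave 8 falls and 0 rises among 27 measured members, against 1.88% and 6.18% of all symbols, with a median of -0.71. Besides Il6 and Ccl7, the chemokine Ccl2 had 10.34 on both Erg day 1 arrays, against 13.88 and 13.73 on Erg day 0 (-3.46, SE 0.19). The neutrophil chemokines Cxcl1 (-3.42, SE 0.32) and Cxcl5 (-3.06, SE 0.49) fell, as did Ccl5 (-1.21, SE 0.21). Of the regulators of NF-kB, Nfkbiz (-1.47, SE 0.29) and Relb (-0.62, SE 0.13) fell. Tnf, Il1b and Il1a, at levels of 4.09 to 7.21 on all 4 Erg arrays, differed by -0.27, -0.27 and -0.30 and did not pass. Cxcl2 had 4.53 and 4.88 on Erg day 1, against 5.77 and 9.64 on Erg day 0, and did not pass (-3.00, SE 1.16, adjusted p = 0.172 in limma). Unlike the interferon list, this list lay at nearly the same median against either Erg day 0 array, at -0.71 against replicate 1 and -0.60 against replicate 2.

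Among the genes that rose, those with the widest gap belonged to several functions. Kctd12, an auxiliary subunit of GABA-B receptors, had 10.60 and 10.74 on Erg day 1, against 6.09 and 6.17 on Erg day 0 (4.54, SE 0.14, adjusted p = 0.000195 in limma), or 23.3-fold. Egr3, an immediate early zinc finger factor, had 10.93 and 10.92 on Erg day 1, against 7.02 and 7.14 on Erg day 0 (3.85, SE 0.12), and 1 of its 2 probe sets was higher on day 1. Pthlh, the parathyroid hormone-related protein that delays chondrocyte hypertrophy, had 7.77 and 8.40 on Erg day 1, against 4.68 and 4.79 on Erg day 0 (3.35, SE 0.21). In these 3 genes the replicates of either day lay close together compared with the gap between the days. Myl9, a regulatory light chain of smooth muscle and nonmuscle myosin, had 12.65 and 11.79 on Erg day 1, against 8.80 and 8.33 on Erg day 0 (3.66, SE 0.33). Sned1, an extracellular matrix protein, had 12.57 and 13.19 on Erg day 1, against 8.87 and 7.62 on Erg day 0 (4.64, SE 0.40). Krt15, a keratin of basal epithelium, differed by 3.34 (SE 0.15), Wnk4, a kinase that regulates ion transport, by 3.04 (SE 0.22), and Igdcc4, an immunoglobulin family membrane protein, by 2.72 (SE 0.15). For Igdcc4, 2 of 4 probe sets were higher on day 1.

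The other 4 of these 12 rose from levels that differed widely between the Erg day 0 arrays. Angptl1, a secreted angiopoietin-like protein, had 11.32 and 10.97 on Erg day 1, against 7.23 and 4.55 on Erg day 0 (5.26, SE 0.77, adjusted p = 0.0156 in limma). Fam107a had 10.50 and 11.06 on Erg day 1, against 7.47 and 4.25 on Erg day 0 (4.92, SE 0.90). Lrrc17 had 12.45 and 12.56 on Erg day 1, against 9.71 and 6.93 on Erg day 0 (4.18, SE 0.77), and Pip had 8.55 and 9.74, against 5.81 and 4.51 (3.98, SE 0.67). In all 4, Erg day 0 replicate 2 was the lower array, so that without it the differences were smaller, at 3.92, 3.31, 2.80 and 3.33 in that order. In the control cultures Angptl1 differed by 5.31 over the day, with 11.42 and 10.71 on day 1, against 5.71 and 5.79 on day 0.

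Part of the contractile machinery rose. Of 25 measured actomyosin genes and Srf targets 6 rose and 0 fell, against 6.18% and 1.88% of all symbols, with a median of 0.68, and that median was 0.66 without Erg day 0 replicate 2. Besides Myl9, the smooth muscle actin Acta2 had 14.24 and 13.61 on Erg day 1, against 12.63 and 11.50 on Erg day 0 (1.86, SE 0.39, adjusted p = 0.0396 in limma). Vcl, which links actin to adhesion sites, had 13.27 and 13.12 on Erg day 1, against 11.86 and 11.58 on Erg day 0 (1.47, SE 0.20). Flna, an actin crosslinker, rose by 1.25 (SE 0.24), Tgfb1i1, an adhesion adaptor, by 1.08 (SE 0.23) and Tpm1, a tropomyosin, by 1.05 (SE 0.22). Tagln, an actin-binding protein of smooth muscle, had 11.45 and 9.98 on Erg day 1, against 7.99 and 8.93 on Erg day 0, and missed the threshold (2.25, SE 0.53, adjusted p = 0.0535 in limma). Srf itself (0.36) and its partners Mkl1 (0.26) and Mkl2 (0.70) did not pass. The late smooth muscle genes Myh11 and Des, at levels of 5.57 to 7.89, differed by -0.11 and -0.12, and Myocd, the cardiac and smooth muscle partner of Srf, by -0.26. In 19 of the 25 members Erg day 1 replicate 2 lay below replicate 1. The control cultures gave 9 rises and 0 falls, against 11% and 9.26% of all symbols there, and a median of 0.67.

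Of 21 measured members of the cartilage list 2 rose and 0 fell, near the 6.18% and 1.88% of all symbols, with a median of 0.41 that was 0.02 without Erg day 0 replicate 2. Sox9, the factor that starts cartilage formation, had 11.69 and 11.43 on Erg day 1, against 10.67 and 10.81 on Erg day 0. Its groups did not overlap but it missed the threshold (0.82, SE 0.20, adjusted p = 0.0581 in limma). Col2a1, the main cartilage collagen and the source of the promoter used on day 1, had 10.25 and 9.18 on Erg day 1, against 9.01 and 9.10 on Erg day 0. One day 1 array lay at the level of day 0, and the difference of 0.66 (SE 0.41, adjusted p = 0.365 in limma) was smaller than the gap between the day 1 arrays. The cartilage proteoglycan Acan had 6.38 and 6.30 on Erg day 1, against 6.55 and 6.41 on Erg day 0 (-0.14, adjusted p = 0.517 in limma). Sox5 and Sox6, the partners of Sox9, differed by 0.10 and 0.41 and did not pass. The 2 that rose were Lect1, the cartilage angiogenesis inhibitor chondromodulin, at 1.27 (SE 0.28, adjusted p = 0.0449 in limma), and Col27a1, a fibrillar collagen, at 1.15 (SE 0.22, adjusted p = 0.0335 in limma). Col9a1, a collagen on the surface of cartilage fibrils, had 11.50 and 11.64 on Erg day 1, against 9.95 and 7.50 on Erg day 0 (2.85, SE 0.68, adjusted p = 0.0569 in limma).

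Genes of hypertrophic cartilage and bone gave 2 rises and 0 falls among 15 members, against 6.18% and 1.88% of all symbols, with a median of 0.02. Runx2, which drives hypertrophy and bone formation, had 11.17 and 11.09 on Erg day 1, against 10.09 and 10.20 on Erg day 0 (0.99, SE 0.12, adjusted p = 0.00918 in limma). Pth1r, the receptor of Pthlh, had 7.47 and 7.61 on Erg day 1, against 6.37 and 5.77 on Erg day 0 (1.47, SE 0.21, adjusted p = 0.0145 in limma). Col10a1, the collagen of hypertrophic cartilage, and Ihh, the ligand made by prehypertrophic cells, differed by 0.38 and -0.04 and did not pass. The largest differences of the list, in Dmp1 (2.99, SE 0.88) and Phex (2.67, SE 0.67), did not pass either (adjusted p = 0.0985 and 0.0654 in limma). Dmp1 had 6.90 and 3.71 on Erg day 0, and its difference was 1.39 without replicate 2.

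Joint and articular genes split. Of 13 members 3 rose and 1 fell, against 6.18% and 1.88% of all symbols, with a median of -0.29. Osr1, an odd-skipped factor of joint and limb mesenchyme, had 13.22 and 13.27 on Erg day 1, against 10.76 and 10.82 on Erg day 0 (2.46, SE 0.19, adjusted p = 0.00319 in limma). The other risers were Pthlh and Erg, given above. Prg4, the gene of lubricin on joint surfaces, had 6.35 and 6.42 on Erg day 1, against 9.68 and 8.66 on Erg day 0 (-2.79, SE 0.30, adjusted p = 0.00741 in limma). Gdf5, a growth factor that marks the future joint, differed by -0.31 and did not pass. Has2, which makes hyaluronan, had 9.01 and 9.80 on Erg day 1, against 11.31 and 10.41 on Erg day 0, and did not pass (-1.45, SE 0.41, adjusted p = 0.0899 in limma).

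Adhesion and matrix genes of condensing mesenchyme rose in part. Of 15 condensation and adhesion genes 3 rose and 1 fell, against 6.18% and 1.88% of all symbols, with a median of 0.34. Vcan, the large proteoglycan of condensing limb mesenchyme, had 13.11 and 13.52 on Erg day 1, against 11.82 and 11.81 on Erg day 0 (1.50, SE 0.17), and the adhesion molecules Ncam1 (1.18, SE 0.21) and Ctnna1 (0.71, SE 0.14) rose as well. Gja1, a connexin of gap junctions, had 9.75 and 9.13 on Erg day 1, against 12.46 and 12.79 on Erg day 0 (-3.18, SE 0.27, adjusted p = 0.00404 in limma). The condensation cadherins Cdh2 and Cdh11 differed by 0.67 each and did not pass. Of 24 fibrous matrix and tendon genes 3 rose and 1 fell, with a median of 0.52, against 0.14 without Erg day 0 replicate 2. Of the elastic fibre genes, Fbn2 (2.97, SE 0.42), Loxl1 (1.41, SE 0.22) and Eln (1.40, SE 0.20) rose. Their relatives Fbn1 (-0.28), Lox (0.24) and Loxl2 (-0.12) did not pass. Mkx, a tendon transcription factor, had 8.37 and 8.01 on Erg day 1, against 9.88 and 9.85 on Erg day 0 (-1.68, SE 0.18, adjusted p = 0.00706 in limma). Lum, a small proteoglycan, had 11.89 and 13.69 on Erg day 1, against 12.42 and 8.23 on Erg day 0, so that its difference of 2.47 (SE 1.27) rested on replicate 2.

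Signalling lists held receptors and intracellular mediators among their risers. Over all symbols 6.18% rose and 1.88% fell, and the counts of the ETS and limb factors lie near those shares. In the hedgehog list 3 of 13 members rose and 0 fell, with a median of 0.70. The receptor Ptch1 had 10.11 on both Erg day 1 arrays, against 9.01 on both Erg day 0 arrays (1.10, SE 0.15, adjusted p = 0.0129 in limma). The transducer Smo rose by 0.90 (SE 0.17) and the transcription factor Gli2 by 1.90 (SE 0.30), while Gli1 (-0.13) and Hhip (-0.06), known targets of the pathway, did not pass. In the BMP and TGF-beta list 4 of 25 rose and 0 fell. These were the receptors Bmpr2 (1.24, SE 0.23) and Tgfbr2 (1.19, SE 0.23), the latency protein Ltbp1 (0.96, SE 0.18) and the inhibitory Smad6 (1.13, SE 0.24). The ligand Bmp4 had 11.17 and 10.21 on Erg day 1, against 12.73 and 11.04 on Erg day 0, and did not pass. In the Wnt list 4 of 21 rose and 0 fell: the antagonists Dkk2 (2.88, SE 0.36) and Wif1 (1.90, SE 0.36), the nuclear factor Tcf7l2 (1.89, SE 0.20) and the receptor Fzd4 (1.29, SE 0.23). The Wnt target Axin2 differed by -0.01. Among 18 ETS factors other than Erg, its close relative Fli1 had 10.01 and 9.67 on Erg day 1, against 8.75 and 8.89 on Erg day 0 (1.02, SE 0.15, adjusted p = 0.0151 in limma), and Elk4, a partner of Srf, rose by 0.89 (SE 0.14). Over the settings tried for genes the Elk4 difference lay between 0.12 and 0.97. The other 16 factors did not pass. Of 19 limb mesenchyme transcription factors Shox2 (0.87, SE 0.15) and Msx1 (0.83, SE 0.17) rose and 0 fell.

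**Figure D3:**
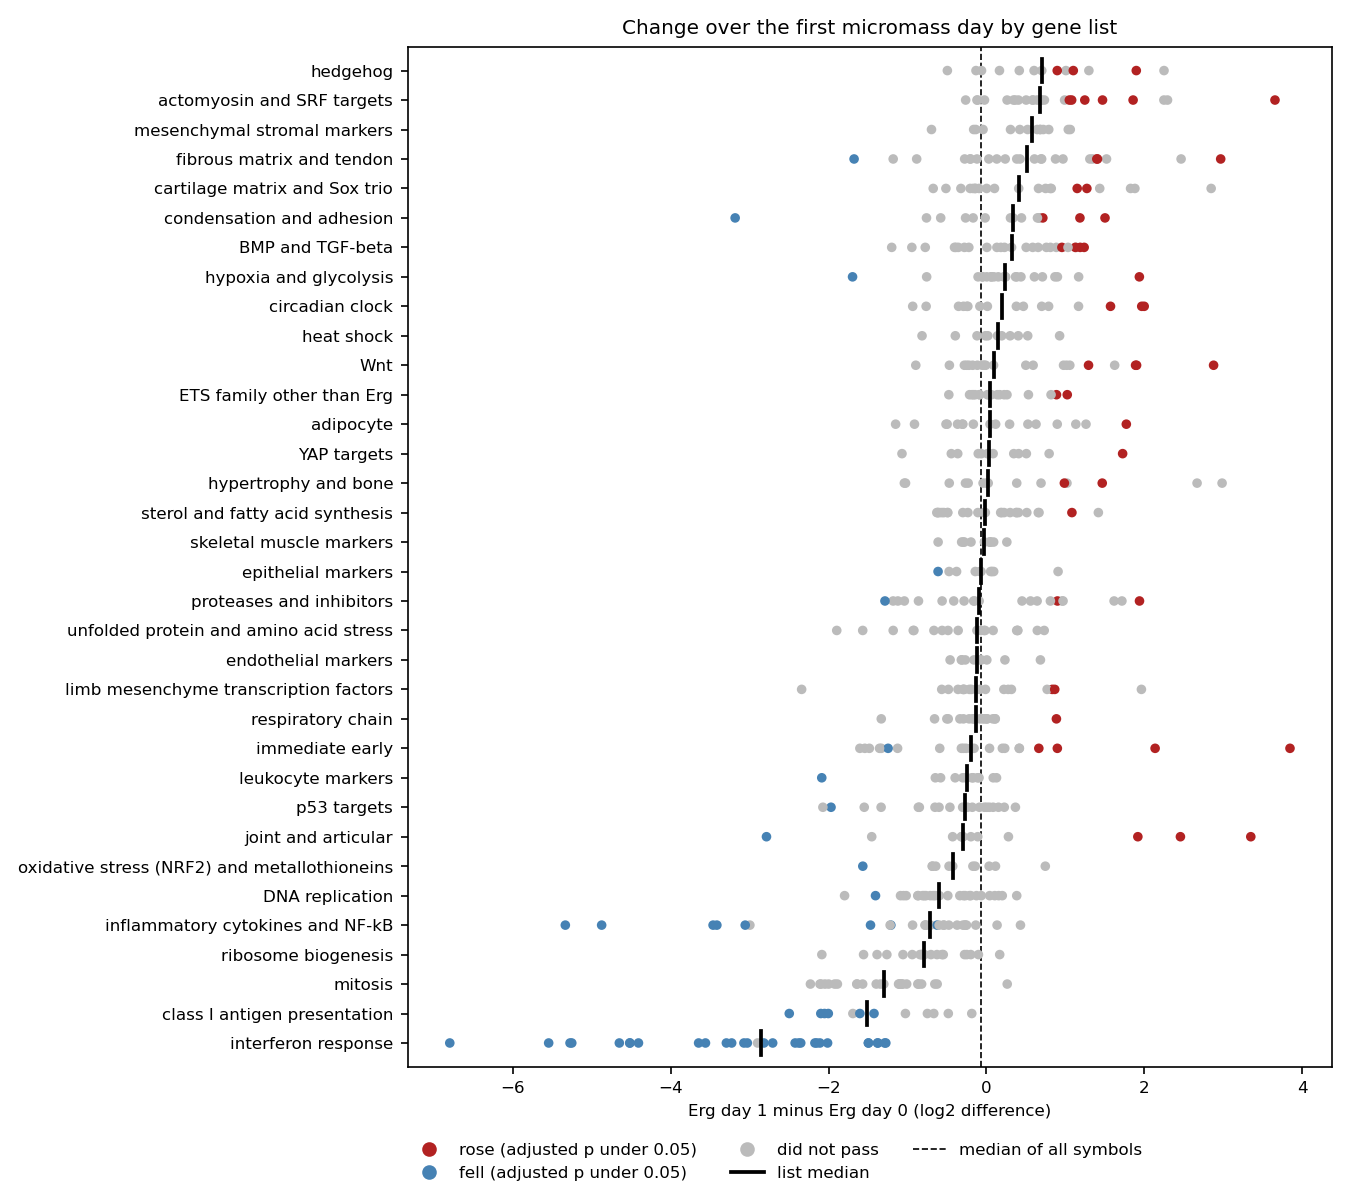
Difference of Erg day 1 minus Erg day 0 (log2, horizontal axis) for every measured member of the 34 gene lists (rows), with members that rose in red, members that fell in blue and members that did not pass in grey. Black bars are list medians and the dashed line is the median of all symbols; the interferon list lies furthest to the left, with a median of -2.86, and the hedgehog and actomyosin lists furthest to the right, with medians of 0.70 and 0.68.

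Immediate early genes, which follow growth factor and stress signals, moved both ways, with 4 rises and 1 fall among 23, against 6.18% and 1.88% of all symbols. Besides Egr3, the nuclear receptor Nr4a1 had 9.58 and 9.82 on Erg day 1, against 7.68 and 7.44 on Erg day 0 (2.14, SE 0.16), and Egr1 rose by 0.90 (SE 0.20) and Nr4a2 by 0.66 (SE 0.12). Ier2 fell by 1.25 (SE 0.24). Dusp6 (-1.60), Junb (-1.35) and Dusp1 (-1.13) were lower without overlap and just missed the threshold (adjusted p from 0.0508 to 0.0515 in limma). Over the settings tried for lists the median of the immediate early genes lay between -0.51 and -0.04. Of 16 circadian clock genes Rora (2.00, SE 0.36), Per3 (1.97, SE 0.28) and Per2 (1.57, SE 0.15) rose and 0 fell. Among proteases and inhibitors the aggrecanase family member Adamts1 (1.94, SE 0.25) and Mmp11 (0.90, SE 0.19) rose and the inhibitor Timp1 (-1.29, SE 0.23) fell, of 21. Pparg, the regulator of fat cell formation, had 10.42 and 10.50 on Erg day 1, against 8.60 and 8.77 on Erg day 0 (1.77, SE 0.16), the 1 riser among 17 adipocyte genes. Single members passed in other lists, against 6.18% of all symbols that rose and 1.88% that fell. The rises are near the first share. A fall of 1 among 10 to 22 members lies above the second, but rests on a single gene. Ndrg1 (1.94, SE 0.29) rose and the vasodilator peptide Adm (-1.70, SE 0.20) fell among 22 hypoxia and glycolysis genes. Amotl1 (1.73, SE 0.13), Fasn (1.08, SE 0.19) and Sdha (0.89, SE 0.18) rose among 13 YAP targets, 25 lipid synthesis genes and 19 respiratory chain genes. The death receptor Fas (-1.97, SE 0.29), the metallothionein Mt2 (-1.57, SE 0.21) and the keratin Krt14 (-0.61, SE 0.13) fell among 20 p53 targets, 11 oxidative stress genes and 10 epithelial markers. Of the endothelial (10), skeletal muscle (11), heat shock (11) and unfolded protein (19) genes, 0 passed in either direction.

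Mitotic genes had lower values on day 1 but did not pass, and the Erg day 1 arrays lay apart. Of 25 members 24 had lower means on Erg day 1 and the median difference was -1.30. Of these members 0 rose or fell, against 6.18% and 1.88% of all symbols. Erg day 1 replicate 2 lay below replicate 1 in all 25. Birc5, which takes part in chromosome segregation, had 9.18 and 6.99 on Erg day 1, against 10.20 and 10.42 on Erg day 0 (-2.23, SE 0.63, adjusted p = 0.0863 in limma). The mitotic kinase Aurka had 7.87 and 5.95 on Erg day 1, against 9.10 and 8.93 on Erg day 0 (-2.11, SE 0.56, adjusted p = 0.0757 in limma). The list's median was -0.48 without Erg day 1 replicate 2 and -2.23 without replicate 1. In control cultures the median was -1.51 and 11 members fell, against 9.26% of all symbols there. Of 27 DNA replication genes 1 fell, Rfc4 (-1.41, SE 0.31, adjusted p = 0.0447 in limma), against 1.88% of all symbols. The median of that list was -0.60.

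In other lists the median depended on Erg day 0 replicate 2. The ribosome biogenesis list had a median difference of -0.80 and 0 of 20 members passed. Replicate 2 of Erg day 0 lay above replicate 1 by a median of 1.49 over this list, and without it the list's median was 0.03. Nop56, a core protein of small nucleolar particles, had 10.25 and 9.60 on Erg day 1, against 11.02 and 12.99 on Erg day 0. The mesenchymal markers had a median difference of 0.58, and of 0.02 without that array, in which they lay 0.72 lower than in replicate 1. Their summed intensity was 179222 and 189457 on Erg day 1, against 182090 and 111380 on Erg day 0. Col1a1, the main bone and skin collagen, had 11.92 and 11.97 on Erg day 1, against 12.52 and 10.53 on Erg day 0. For sterol and fatty acid synthesis the median was -0.01 against both day 0 arrays, -0.48 against replicate 1 and 0.49 against replicate 2. The symbols with the largest gap between the Erg day 0 arrays are given without a test. Replicate 2 was lower in the metal reductase Steap4 (5.12, against 10.73 in replicate 1), Otor (5.79 and 10.96), haptoglobin, Hp (8.11 and 13.24), Slc15a2 (5.89 and 11.02) and the growth factor Igf1 (7.02 and 11.70). It was higher in the chemokine Cxcl2 (9.64, against 5.77 in replicate 1), Slfn4 (10.35 and 6.54), Serpinb2 (8.39 and 4.63), Car6 (11.44 and 7.75) and the chemokine Cxcl11 (12.30 and 8.77).

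Of the 163 named genes, 9 lost their call without Erg day 0 replicate 2. Besides Erg these were Flna (1.14), Col27a1 (1.10), Lect1 (0.96), Ctnna1 (0.70), Sdha (0.69), Mmp11 (0.68), Krt14 (-0.57) and Rfc4 (-1.06), with adjusted p between 0.0502 and 0.0692 in limma, and 0 of the 27 DNA replication genes then fell, with a median of -0.25. Of the others 12 gained a call, Col9a1 among them at 1.62 (adjusted p = 0.00492 in limma). Without that array the difference was -2.90 for Mx1, -1.69 for Rsad2, -1.06 for Cxcl2, -2.04 for Bmp4, -1.10 for Nop56, 0.37 for Lum and -0.57 for Col1a1. Fbn2 then differed by 2.25, Acta2 by 1.29, Gli2 by 1.44 and Prg4 by -3.29. The counts of the hedgehog, BMP and TGF-beta, and Wnt lists also changed without that array.

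**Figure D4:**
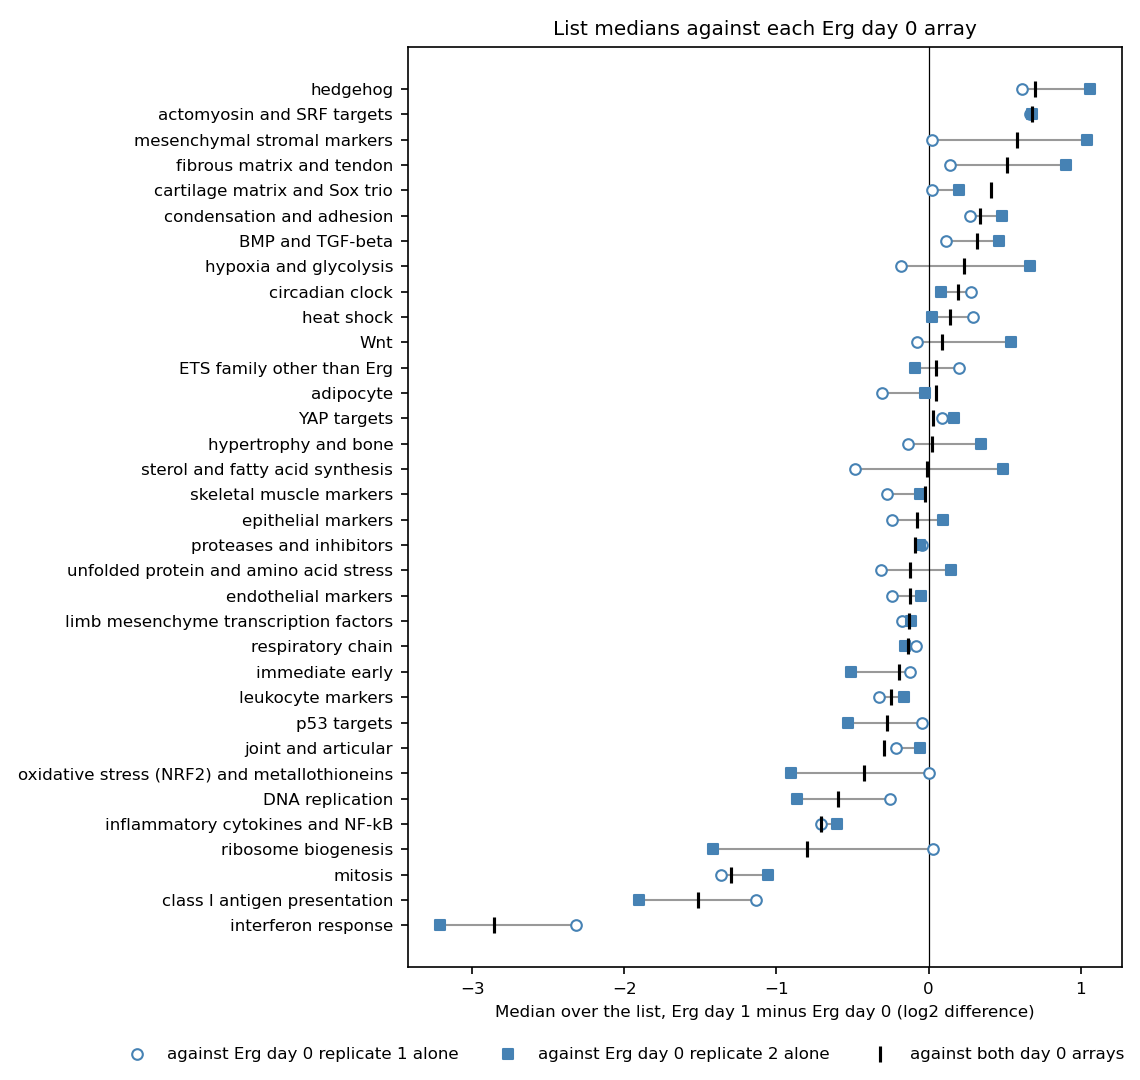
Median difference of each gene list (rows) between Erg day 1 and Erg day 0 (log2, horizontal axis), measured against Erg day 0 replicate 1 alone (open circles), replicate 2 alone (filled squares) or both (bars). The interferon, class I, mitosis and actomyosin lists lie on the same side of 0 against either array, while ribosome biogenesis lies at 0.03 against replicate 1 and -1.42 against replicate 2.

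The day's change in the Erg cultures was set against that in the control cultures, in which 8922 probe sets (19.8%) passed, 11.8% higher and 7.97% lower, and 4196 symbols (20.3%), 2281 higher (11%) and 1915 lower (9.26%). These comparisons share no array, but share one normalization and one estimate of spread. Of the 1279 symbols that rose in Erg cultures 1193 (93.3%) also rose in control cultures, which is 52.3% of the 2281 that rose there. Of the 388 that fell 351 (90.5%) also fell in control cultures, which is 18.3% of the 1915 that fell there. No symbol passed in opposite directions. Over the 20680 symbols the changes had a Pearson correlation of 0.883 and a Spearman correlation of 0.817, which describes genes, not replicates. The test of the difference between the changes called 0 of 45037 probe sets in limma (0%), with a smallest adjusted p of 0.974, and 1100 (2.44%) had an unadjusted p under 0.05, 638 of them higher and 462 lower in the Erg cultures. In the authors' deposited table the smallest q-value for this interaction is 0.875. Without Erg day 0 replicate 1, 356 probe sets passed (314 higher, 42 lower), with the array that stands apart as the only Erg array of day 0. Without replicate 2, 0 passed and 1417 had an unadjusted p under 0.05.

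**Figure D5:**
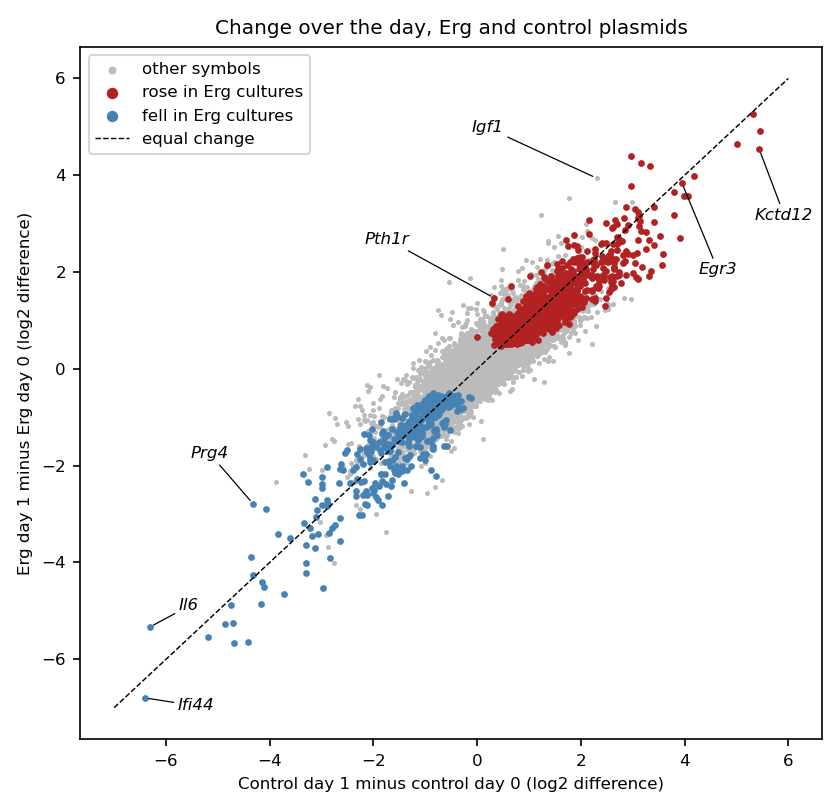
Change over the day in Erg cultures (vertical axis, log2 difference) against that in control cultures (horizontal axis, log2 difference) for 20680 symbols, with those that rose in Erg cultures in red, those that fell in blue and a dashed line of equal change. Named points include Prg4 above the line, at -2.79 in Erg and -4.32 in control cultures, and Kctd12 below it, at 4.54 and 5.44.

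The genes with the smallest p for that difference are given as values, since none passed. Kctd12 changed by 4.54 in Erg cultures and by 5.44 in control cultures (unadjusted p = 0.00346 in limma), with 6.09 and 6.17 on Erg day 0, against 5.08 and 5.37 on control day 0. Oas2 changed by -2.42 in Erg cultures and -1.66 in control cultures, and Oasl2 by -4.65 and -3.73. The other named genes whose Erg change lay lower were Dpy19l3 (0.92 in Erg and 1.76 in control cultures) and Fam102a (0.32 and 1.10). Those whose Erg change lay higher were Gngt1 (-0.23 in Erg and -1.39 in control cultures, unadjusted p = 0.000349 in limma), Tmsb10 (-1.34 and -2.18), Siglec1 (-0.15 and -0.90), Adig (0.12 and -0.77) and Fgf8 (-0.34 and -1.03). Of these, Tmsb10, which sequesters actin, was above a level of 10 on every array, while Gngt1, Siglec1, Adig and Fgf8 lay at or below 6.88. Detection calls were not analysed here, so that whether these low levels exceed background is unknown.

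For this difference the joint gene Prg4 and the hypertrophy gene Pth1r are given as well, chosen after their values were seen. Prg4 had 6.22 and 6.09 on control day 1, against 10.37 and 10.58 on control day 0, a change of -4.32, against -2.79 in Erg cultures (difference 1.54, SE 0.43, unadjusted p = 0.00964, adjusted p = 0.974 in limma). The Erg and control day 1 levels lay close together, while on day 0 both Erg arrays were below both control arrays. Without Erg day 0 replicate 1 the difference was 2.05 (adjusted p = 0.0158 in limma), and without replicate 2 it was 1.03 (unadjusted p = 0.00142, adjusted p = 1.00 in limma). Pth1r had 7.12 and 6.92 on control day 1, against 6.65 and 6.75 on control day 0, a change of 0.32, against 1.47 in Erg cultures (difference 1.14, SE 0.29, unadjusted p = 0.00621, adjusted p = 0.974 in limma). That difference was 1.44 (adjusted p = 0.0350 in limma) without Erg day 0 replicate 1 and 0.85 (adjusted p = 1.00 in limma) without replicate 2. Runx2 changed by 0.99 in Erg and 1.48 in control cultures, and Nr4a1 by 2.14 and 1.34, and neither difference passed.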

How the data were processed

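Total RNA was hybridised to 8 Affymetrix mouse expression arrays. The intensity values of the workbook were deposited by the authors on the linear scale after RMA, with Partek GS 6.6 per the notes in the deposited workbook and with dChip of 2005 per the series text, and which was used is not settled. Its ratio, p-value and q-value columns are the authors' own, from group means, limma and QVALUE per those notes, and were used for comparison alone. The labels and columns gave each array its group.

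Intensities were put on the log2 scale, and all 45037 probe sets were fitted without a filter with limma 3.58.1 (R 4.3.3, data.table (version 1.17.8)): means of the 4 groups over 8 arrays, 4 residual and 2.78 prior degrees of freedom, prior SD 0.168. Contrasts were Erg day 1 minus Erg day 0, control day 1 minus control day 0, and their difference. P-values were adjusted by Benjamini-Hochberg over all probe sets, at 0.05. With 2 arrays a group an exact permutation test cannot go below p = 0.333, so none was used. Errors are SE from limma, and their precision is limited by the number of arrays.

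Of the probe sets 37818 carry 1 symbol, 1399 several and 5820 none. Each of 20680 symbols was represented by its probe set of highest mean, of which RefSeq holds 16151 as current and 2144 as synonyms. The 34 lists hold 634 symbols, 623 measured, and got no test. Members and lists were chosen with earlier results of these data known. Named were both Erg probe sets, 9 fixed genes, the 12 risers and 12 fallers with the widest gap between groups, 5 genes in each direction for the difference and for the spread between Erg day 0 arrays, and up to 4 members a list by smallest p. The values of 1 list member are not reported here. Other list members appear as values chosen after they were seen.

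Alternatives were the Erg arrays alone, an intensity trend, a filter on dim probe sets (level above 6.65), 1 probe set or the mean of all per symbol, a replicate block, renormalization by quantiles or by cyclic loess, array weights, the series table and each array left out. A block with crossed numbers was added after seeing the data. The fit was tested on simulated data. Promoters were read from RefSeq windows on GRCm38.p6 with Python 3.11.15, and matplotlib 3.10.9 drew the figures. No genome was used.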

Additional observations from a re-analysis of the deposited data

How the results depend on the processing

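The direction of the 163 named genes and both Erg probe sets held over the alternatives, apart from Adig, which had values of -0.032 without Erg day 0 replicate 2 and 0.266 without replicate 1, not called in either. Counts did not hold. The 3146 probe sets called for Erg day 1 against day 0 became 23 with the Erg arrays alone (10 higher, 13 lower; 8250 at an unadjusted p under 0.05), 1511 with array weights, 1833 with 1 probe set per symbol and p adjusted over symbols alone, and 1329 with a symbol's probe sets averaged, the last 2 over 20680 symbols in place of 45037 probe sets. Leaving out 1 array gave 105 to 10337. With the Erg arrays alone 73 of the 163 genes lost their call. The 0 calls for the difference of the day's change stayed at 0 in limma except without Erg day 0 replicate 1 (range 0 to 356 over arrays left out). A group left with 1 array is assumed to vary like the others.

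The Erg probe set 1440244_at lost its call with the Erg arrays alone (1.92, adjusted p = 0.187 in limma), after a second quantile normalization (1.82, adjusted p = 0.0527), after cyclic loess (1.85, adjusted p = 0.0615) and with array weights (1.92, adjusted p = 0.0977). Leaving out arrays gave 1.31 to 2.52. The causes were not tested.

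A replicate block gave 2182 calls and 1.92 (adjusted p = 0.0531 in limma) for that probe set. The deviations of same-numbered arrays correlated at -0.241 between Erg day 1 and Erg day 0 and at -0.613 between Erg day 0 and control day 0. Between Erg day 1 and control day 1 they correlated at 0.318. Whether the numbers pair the samples is unknown. With the Erg day 0 numbers crossed, chosen after seeing the data, the block gave 3704 calls, and 1.92 (adjusted p = 0.054 in limma) for the probe set. Of the list medians, 9 of 34 moved by more than the spread between replicates without Erg day 0 replicate 1 and 7 without replicate 2. The Erg arrays alone, the trend and the dim filter were not run for list medians. Detection calls and raw images were not analysed here, so signal over background is unknown.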
